A study of Mus musculus with 24 samples.

Results

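The NF-κB subunits and their feedback regulators were described here as 10 genes, taken from the 54532 genes of the table by their symbols. Nfkb1, Nfkb2, Rel, Rela and Relb encode the 5 subunits, and Nfkbia, Nfkbie, Nfkbiz, Bcl3 and Tnfaip3 encode inhibitors and regulators. PolyA RNA was sequenced from bone marrow-derived macrophages (BMDMs), cultured for 7 days in medium that held supernatant of the fibroblast line L929, and from dendritic cells (BMDCs) that were raised from marrow in the presence of IL-4 plus GM-CSF. There were 24 libraries in 8 groups of 3. Each group combines a cell type, a genotype label and a treatment label. WT marks cells of Tmem173 fl/fl mice, and CRE marks cells of Tmem173 fl/fl mice that also carry Lyz2-Creert2, a tamoxifen-inducible Cre expressed from the promoter of lysozyme 2, a gene of myeloid cells. Both genotypes carry the floxed alleles of Tmem173, which encodes STING, on a C57BL/6N background. The study's methods describe tamoxifen injections of both genotypes, but their section on the marrow cultures does not mention tamoxifen. CT marks control cells and DX marks cells given DMXAA, an agonist of mouse STING, whose dose is 40 µM in the series' design text but is given in µg/mL in the study's methods, so the concentration is uncertain. The age of the mice and the hours of exposure behind these libraries are not given in the sources used here. The labels do not say that the 3 libraries of a group came from separate animals, so p-values measure the spread between these libraries, which may be technical.

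NF-κB is a family of dimeric transcription factors. In resting cells most dimers are held in the cytoplasm by IκB proteins, and a stimulus that activates the IκB kinase leads to the degradation of the IκBs and to the entry of the dimers into the nucleus. Many of the genes then transcribed encode the pathway's own parts, including IκBα and A20, which end the signal. STING activates the kinases TBK1 and IKK, and through them IRF3 and NF-κB, in macrophages and dendritic cells.

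The members fall into groups by role. Rela (chr19:5637483-5648130, plus strand) encodes p65, Rel (chr11:23736847-23770970, minus strand) encodes c-Rel, and Relb (chr7:19606217-19629438, minus strand) encodes RelB, the 3 subunits with a transactivation domain. Nfkb1 (chr3:135584655-135691547, minus strand) and Nfkb2 (chr19:46304737-46312090, plus strand) encode the precursors p105 and p100, which yield p50 and p52 and can also act as inhibitors. Nfkbia (chr12:55489410-55492647, minus strand) and Nfkbie (chr17:45555703-45563169, plus strand) encode the cytoplasmic inhibitors IκBα and IκBε. Nfkbiz (chr16:55811375-55838899, minus strand) and Bcl3 (chr7:19808462-19822770, minus strand) encode the nuclear IκB proteins IκBζ and Bcl-3, which modulate transcription with p50 or p52. Tnfaip3 (chr10:19000910-19015657, minus strand) encodes A20, a ubiquitin-editing enzyme that restrains the kinases upstream of NF-κB. These are the table's coordinates on GRCm38, and all 10 genes are protein-coding. The gene length behind FPKM was shorter than the exons of the annotation for Nfkb2 (3289 against 4584 bases) and Rela (2716 against 3072 bases), so their levels beside other genes depend on that length. Exons of Nfkb2 and Bcl3 overlap genes of the opposite strand. The largest overlap with a single gene covers 11.6% of the annotated exonic bases of Nfkb2 and 6.51% of those of Bcl3. The strand setting of the counting is not given in the sources used here, so reads in those stretches cannot be assigned to a strand.

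The DNA just before the start of several members holds matches to the κB consensus, the 10-base motif that NF-κB dimers bind, and the windows of Nfkbia, Nfkbie and Nfkb2 are shown because these genes carry the results on the inhibitors and on p100. Each is the 250 bases before a RefSeq start on GRCm38.p6, in the direction of transcription, with bases that match the κB consensus on either strand in capitals.
Nfkbia (chr12:55492648-55492897, minus strand): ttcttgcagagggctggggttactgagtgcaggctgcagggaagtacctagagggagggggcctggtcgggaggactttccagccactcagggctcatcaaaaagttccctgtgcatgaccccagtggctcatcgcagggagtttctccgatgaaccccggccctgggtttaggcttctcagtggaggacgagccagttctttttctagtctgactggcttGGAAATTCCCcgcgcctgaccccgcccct
Nfkbie (chr17:45555450-45555699, plus strand): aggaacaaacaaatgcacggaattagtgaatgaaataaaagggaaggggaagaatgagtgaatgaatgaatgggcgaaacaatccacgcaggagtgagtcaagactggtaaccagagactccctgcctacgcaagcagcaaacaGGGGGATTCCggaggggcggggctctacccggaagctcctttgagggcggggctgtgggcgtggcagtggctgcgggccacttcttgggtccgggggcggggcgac
Nfkb2 (chr19:46304487-46304736, plus strand): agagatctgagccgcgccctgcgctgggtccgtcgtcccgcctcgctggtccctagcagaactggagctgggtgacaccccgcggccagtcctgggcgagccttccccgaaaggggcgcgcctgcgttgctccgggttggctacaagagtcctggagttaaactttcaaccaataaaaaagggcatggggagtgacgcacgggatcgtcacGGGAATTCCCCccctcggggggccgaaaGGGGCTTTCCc
RefSeq windows were matched for 7 of the 10 members, all but Nfkb1, Relb and Nfkbiz. The κB consensus was found in a window of 5 of them (Nfkb2, Nfkbia, Nfkbie, Rel and Tnfaip3, of which Nfkb2 and Tnfaip3 have more than 1 start), against 3.9% of 32851 windows of the same length over all genes. The Nfkbia match reads GGGAATTTCC on the strand opposite to the gene, 29 to 20 bases before the start. In Nfkbie it reads GGGGGATTCC on the gene's own strand, 106 to 97 bases before the start. In Nfkb2 a palindromic match, GGGAATTCCC, lies 39 to 30 bases before the start shown, overlaps a further match shifted by 1 base, and is followed by GGGGCTTTCC 11 to 2 bases before the start. The interferon response core GAAANNGAA was found in the window of 1 member, Nfkbia (7.13% of all windows), and the gamma-activated site core TTCNNNGAA in that of 1 member, Nfkb2 (7.02%). A match describes the letters in the window and was not tested as a binding site.

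Some libraries stood apart. The 4 BMDM libraries numbered 3 had a summed FPKM of 19.6 to 33.2 over 9 macrophage markers, against 5955 to 13140 in the other 8 BMDM libraries, with Adgre1, Csf1r and Cd68 among 7 markers under 1 FPKM in all 4, and 1608 to 2403 over 10 fibroblast markers, against 9.55 to 121. They are therefore shown apart and enter no test, which leaves BMDM groups of 2. Among those 8, the WT-labelled libraries numbered 2 held more fibroblast transcripts (109 and 121, against 9.55 to 14.1 in the other 6). Over the 10 dendritic cell markers the BMDC libraries had a summed FPKM of 6597 to 19170, against 79.3 to 228 in the BMDM libraries numbered 1 and 2. The 9 macrophage markers were present in BMDCs too, at a summed FPKM of 1375 to 6381. In the BMDC libraries labelled CRE and numbered 2 the 6 neutrophil markers summed to 258 and 480, against 12.2 to 26.3 in the other 10. The macrophage markers of these 2 libraries summed to 1375 (control) and 1600 (DMXAA), below every other BMDC library. Each of the 12 BMDC libraries was closest, over all expressed genes, to a library of the other genotype label. Tmem173 does not check the labels in BMDCs, since its FPKM ranged over 28.8 to 51.6 (WT) and 19.7 to 36.9 (CRE) in control cells and over 34.6 to 55.3 and 24.3 to 35.1 after DMXAA. In BMDMs it was 9.91 to 14.7 and 8.76 to 10.4 in control cells, and 22.8 to 31.9 (WT) against 9.12 to 10.1 (CRE) after DMXAA. Libraries are therefore named by their labels.

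FPKM is the authors' count per kilobase of gene, scaled by an effective library size and not by the sum of counts. Total counts ran from 15657347 to 18912887. Fits used edgeR's quasi-likelihood test with TMM scaling, and a gene was called at a Benjamini-Hochberg adjusted p under 0.05 over all genes tested. Differences are log2 with their SE. With scaling by total counts instead, the median of all genes was -0.589 (TMM -0.0794) in the DMXAA response of WT BMDMs, -0.238 (TMM -0.0099) in that of CRE BMDMs, and -0.357 and -0.341 (TMM 0.0067 and -0.008) in those of WT and CRE BMDCs. In the difference between the labels in DMXAA-treated BMDMs it was 0.242 (TMM 0.007). Changes below are relative to the TMM scale.

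The first question was how the members differ in level before any agonist. In BMDMs of the WT label Nfkbia and Rela transcripts were the most abundant per length, at 47.0 and 68.3 FPKM for Nfkbia and 39.7 and 51.8 FPKM for Rela in libraries 1 and 2, and the ranges of the pair overlapped. Nfkb2 followed at 15.5 and 24.2 FPKM and Tnfaip3 at 12.3 and 14.0 FPKM. Nfkb1, Relb, Nfkbie, Bcl3 and Rel had group means between 4.82 and 8.91 FPKM, with each neighbour in that order overlapping the next. Nfkbiz was lowest, at 2.43 and 3.51 FPKM. In WT BMDCs Nfkbia was again first, at 60.5, 73.5 and 87.0 FPKM, and Nfkbiz last, at 0.462, 0.741 and 1.03 FPKM. Tnfaip3, in place 4 by level in macrophages, was in place 9 in dendritic cells, at 3.36, 4.48 and 4.95 FPKM.

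**Figure D1:**
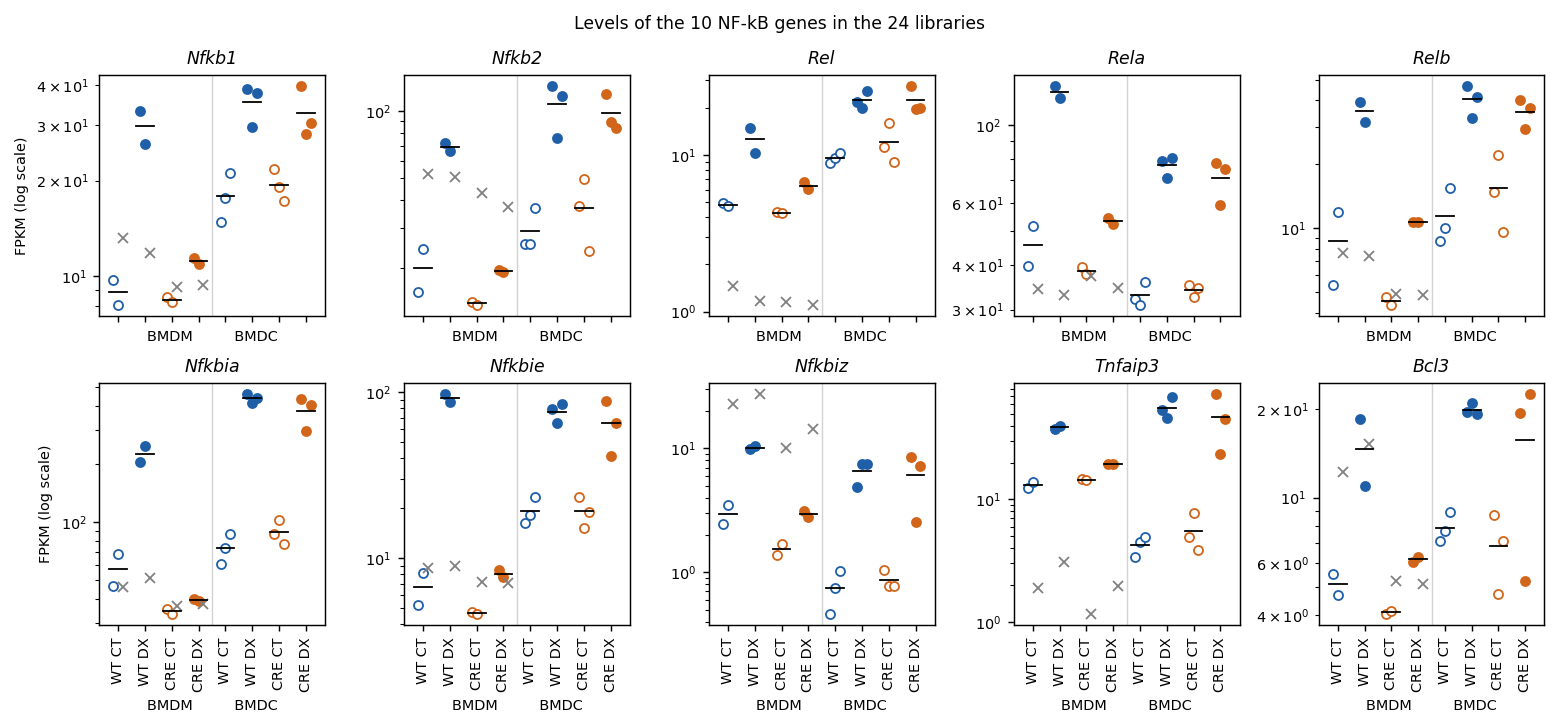
FPKM (log scale) of each gene in each library, by group, where CT is control, DX is DMXAA, blue is the WT label and orange the CRE label. Open circles are control and filled circles DMXAA libraries, black bars are group means, and grey crosses are the BMDM libraries numbered 3, which enter no mean. In BMDMs filled blue circles lie above all others except crosses for every gene, while in BMDCs the blue and orange circles of a treatment overlap for all 10 genes.

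DMXAA raised all 10 members in WT BMDMs, against 18.4% of the 11569 tested genes called higher. The activating subunits rose by 2.41-fold to 3.78-fold. Rela went from 39.7 and 51.8 FPKM to 129 and 119 FPKM (log2 1.32 ± 0.16, adjusted p = 0.00105, edgeR). Rel went from 4.92 and 4.71 FPKM to 14.8 and 10.3 FPKM (log2 1.27 ± 0.18), the smallest rise of the 10. Relb went from 5.39 and 11.9 FPKM to 39.3 and 31.7 FPKM (log2 1.92 ± 0.35), with the widest error of the 10. For each of these genes both DMXAA libraries lay above both controls, as was so for 3825 of the 11569 genes tested. All fold changes were measured on whole cultures, in which more transcript per cell and more cells of one type cannot be told apart.

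The precursor genes rose by similar amounts in WT BMDMs. Nfkb1 went from 9.73 and 8.09 FPKM to 33.2 and 26.1 FPKM (log2 1.62 ± 0.15) and Nfkb2 from 15.5 and 24.2 FPKM to 72.1 and 66.1 FPKM (log2 1.68 ± 0.22).

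Among the regulators, Nfkbie changed most in WT BMDMs. It went from 5.24 and 8.16 FPKM to 96.9 and 87.6 FPKM, a 12.7-fold rise (log2 3.67 ± 0.23, adjusted p = 9.07e-05, edgeR), and moved from place 7 to place 3 by level. Its partner among the cytoplasmic inhibitors, Nfkbia, went from 47.0 and 68.3 FPKM to 207 and 248 FPKM (log2 1.87 ± 0.21, 3.65-fold). Tnfaip3 went from 12.3 and 14.0 FPKM to 37.7 and 40.2 FPKM (log2 1.46 ± 0.12). The nuclear IκB genes rose too, Nfkbiz from 2.43 and 3.51 FPKM to 9.96 and 10.4 FPKM (log2 1.66 ± 0.22) and Bcl3 from 5.50 and 4.69 FPKM to 18.4 and 10.9 FPKM (log2 1.41 ± 0.25). With total-count scaling all 10 stayed called, at log2 0.75 (Rel) to 3.16 (Nfkbie), while the split of called genes went from 2134 higher and 2397 lower to 1400 and 5449. With only the 2 WT groups in the fit 9 were called, Relb being lost (adjusted p = 0.0501, edgeR), and with the spread estimated from the WT-labelled libraries 8 were, Relb and Bcl3 being lost.

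In CRE BMDMs the fitted values were smaller. The largest were those of Relb, from 4.74 and 4.35 FPKM to 10.7 and 10.7 FPKM (log2 1.21 ± 0.35, adjusted p = 0.08, edgeR), and of Nfkbiz, from 1.38 and 1.70 FPKM to 3.09 and 2.79 FPKM (log2 0.91 ± 0.22, adjusted p = 0.0494). Nfkbiz was the 1 member called, against 7.28% of genes called higher. Nfkbie went from 4.76 and 4.62 FPKM to 8.42 and 7.65 FPKM (log2 0.75 ± 0.22, adjusted p = 0.0793). The log2 values of the other subunits were 0.55 ± 0.18 for Rel, 0.46 ± 0.21 for Nfkb2, 0.44 ± 0.15 for Rela and 0.38 ± 0.15 for Nfkb1, and those of Bcl3 and Tnfaip3 were 0.57 ± 0.25 and 0.41 ± 0.12. Nfkbia had the smallest value, 35.5 and 33.6 FPKM in controls and 40.2 and 39.1 FPKM after DMXAA (log2 0.17 ± 0.20), and its sign depends on the scale: scaled by total counts (CPM) it went from 60.4 and 57.0 to 57.6 and 55.6.

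The number of members called in CRE BMDMs depends on which libraries set the spread. The biological coefficient of variation was 5.19% among the 4 CRE-labelled libraries and 35.1% among the 4 WT-labelled ones, and the test above pools both. With only the 2 CRE groups in the fit all 10 members were called, with adjusted p (edgeR) from 5.8e-09 for Relb to 0.0422 for Nfkbia, against 28.7% of all genes called higher. The DMXAA libraries lay above the controls for all 10 members in FPKM, against 39.8% of genes. With total-count scaling no member was called, and over all genes the calls went from 842 higher and 315 lower to 683 and 885.

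**Figure D2:**
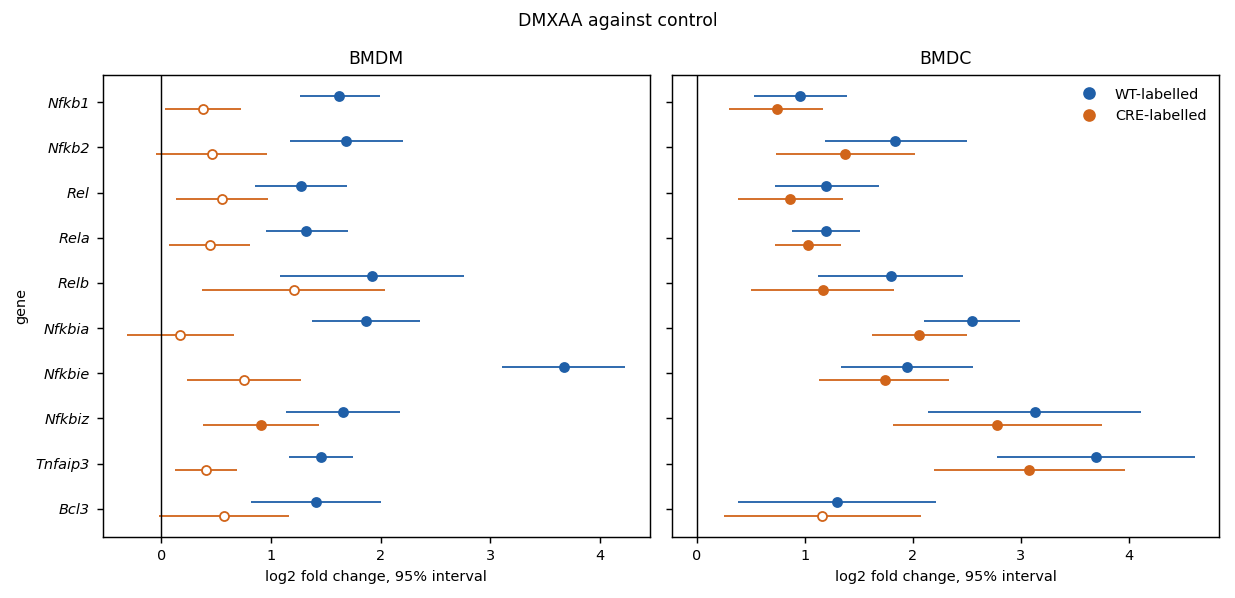
Log2 fold change of DMXAA against control for each gene, with 95% intervals, in BMDMs (left) and BMDCs (right), for the WT label (blue) and the CRE label (orange). Filled points were called at an adjusted p under 0.05 and open points were not. In BMDMs the blue values run from 1.27 to 3.67 and the orange from 0.17 to 1.21, while in BMDCs the intervals of both labels overlap for every gene.

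The second question was whether the labels differ without agonist. In control BMDMs no member was called (edgeR) and 0.0432% of genes were. An unadjusted p under 0.05 (edgeR) was found for 5 members, against 793 of the 11569 genes tested. DESeq2 called 1 member, Nfkbiz, and limma voom none. The values of 9 members were below 0 in CRE cells. Nfkbiz had -0.99 ± 0.22 (adjusted p = 0.42), Relb -0.98 ± 0.35, Nfkbia -0.78 ± 0.20 (35.5 and 33.6 FPKM in CRE against 47.0 and 68.3 FPKM in WT cells), and Nfkb2 and Nfkbie -0.56 each. Tnfaip3 was the exception, at 0.10 ± 0.12. In FPKM 8 members lay below both WT controls in both CRE controls, against 17.8% of genes. These values rest on single WT libraries. Without WT control library 1 also 5 members were called lower, Relb, Nfkbiz, Nfkbia, Nfkb2 and Nfkbie, against 1.26% of genes, and Tnfaip3 stood at -0.0024. WT control library 2 and the DMXAA library of its number held the higher fibroblast transcripts given above. Without both of them 5 members were called, against 21.8% of genes called in either direction, Nfkbiz (-0.68), Nfkbia (-0.47), Bcl3 (-0.45) and Nfkb1 (-0.23) lower and Tnfaip3 (0.22) higher, while Relb and Nfkb2 had -0.27 and -0.19 and were not called. The part of fibroblast transcripts in the difference was not tested. That fit leaves 1 library in each WT group, which is assumed to vary like the CRE libraries.

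After DMXAA all 10 members were lower in CRE than in WT BMDMs, against 9.99% of genes called lower. Nfkbie had the largest difference, 8.42 and 7.65 FPKM against 96.9 and 87.6 FPKM (log2 -3.47 ± 0.23, adjusted p = 0.00111, edgeR). Nfkbia stood at 40.2 and 39.1 FPKM against 207 and 248 FPKM (log2 -2.47 ± 0.21). Among the subunits the differences were -1.79 ± 0.22 for Nfkb2, -1.69 ± 0.35 for Relb, -1.36 ± 0.15 for Nfkb1, -1.17 ± 0.16 for Rela and -0.93 ± 0.18 for Rel. Nfkbiz had -1.74 ± 0.22, Bcl3 -1.19 ± 0.25 and Tnfaip3 -0.94 ± 0.12. All 10 remained called with total-count scaling, at -0.68 (Rel) to -3.23 (Nfkbie), where the called genes went from 1071 higher and 1156 lower to 2073 and 850. When either CRE DMXAA library was left out, 3 members remained called, Nfkb1, Nfkbia and Nfkbie, and when the spread was estimated from WT-labelled libraries alone none did.

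The difference between the responses themselves, tested as the interaction of label and DMXAA, was called lower in CRE BMDMs for 4 members, against 2.28% of genes. These were Nfkbie (-2.91 ± 0.31, adjusted p = 0.0125, edgeR), Nfkbia (-1.69 ± 0.29, adjusted p = 0.0342), Nfkb1 (-1.24 ± 0.21, adjusted p = 0.034) and Tnfaip3 (-1.05 ± 0.17, adjusted p = 0.0306). Nfkb2 (-1.23 ± 0.30), Rela (-0.88 ± 0.22), Bcl3 (-0.84 ± 0.35), Nfkbiz (-0.75 ± 0.31), Rel (-0.72 ± 0.25) and Relb (-0.71 ± 0.49) did not pass. The fold by which Relb rose in WT BMDMs was 7.29 in the pair of libraries numbered 1 and 2.66 in the pair numbered 2, and in CRE BMDMs it was 2.25 and 2.46. Without any 1 of the 4 CRE libraries none was called, without WT DMXAA library 1 only Nfkbie and Tnfaip3 were, and with total-count scaling only Nfkbie and Nfkb1, with the split over all genes going from 160 higher and 264 lower to 378 and 189. Without both WT-labelled libraries numbered 2 all 10 were called, at -0.94 (Rel) to -3.34 (Nfkbie), against 21.7% of genes called lower.

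**Figure D3:**
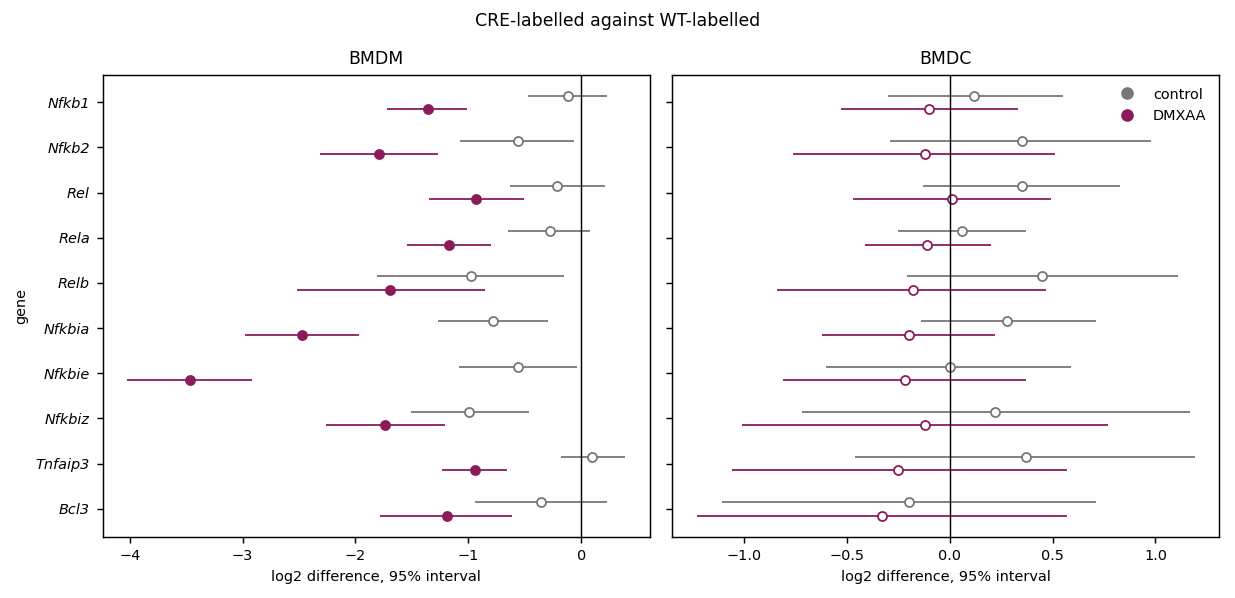
Log2 difference of CRE-labelled against WT-labelled cells for each gene, with 95% intervals, in control cells (grey) and after DMXAA (purple), in BMDMs (left) and BMDCs (right, on a narrower axis). Filled points were called. All 10 BMDM values after DMXAA are called and run from -3.47 to -0.93, and no other value in the plot is called.

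DMXAA raised all 10 members in WT BMDCs, against 17% of the 12126 tested genes called higher. The order of the responses was not that of BMDMs. Tnfaip3 rose most, from 3.36, 4.48 and 4.95 FPKM to 53.7, 46.1 and 69.1 FPKM (13-fold, log2 3.70 ± 0.42, adjusted p = 7e-05, edgeR). Nfkbiz followed, from 0.462, 0.741 and 1.03 FPKM to 4.86, 7.52 and 7.44 FPKM (8.73-fold, log2 3.13 ± 0.45). Its control values lay near the floor, at 43, 73 and 101 counts, and it passed the filter only through DMXAA libraries, so its fold is uncertain. With 1 FPKM required in every BMDC library Nfkbiz was not tested, and 9 members were called. Nfkbia reached the highest level of any member, going from 60.5, 73.5 and 87.0 FPKM to 461, 414 and 442 FPKM (5.85-fold, log2 2.55 ± 0.20). Nfkbie rose 3.87-fold, to 79.2, 64.8 and 84.6 FPKM (log2 1.95 ± 0.28). No DMXAA library overlapped a control for these genes. Over all genes the DMXAA libraries lay above every control for 3077 of 12126.

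The subunits of WT BMDCs rose too. Nfkb2 went from 25.4, 25.5 and 37.0 FPKM to 130, 75.5 and 117 FPKM (log2 1.84 ± 0.30) and Relb from 8.71, 10 and 15.5 FPKM to 47.1, 33.2 and 41.3 FPKM (log2 1.8 ± 0.31). Rela went from 32.1, 30.9 and 35.9 FPKM to 79.0, 70.8 and 80.8 FPKM (log2 1.20 ± 0.14). The log2 values of Rel and Nfkb1 were 1.20 ± 0.22 and 0.96 ± 0.20. Bcl3 went from 7.12, 7.72 and 8.93 FPKM to 19.4, 20.9 and 19.2 FPKM (log2 1.30 ± 0.42, adjusted p = 0.0344, edgeR). Its call was lost without any 1 of the 6 WT libraries and without both WT libraries numbered 1 (adjusted p = 0.149). With total-count scaling it was the 1 member no longer called (log2 0.93, adjusted p = 0.104), the split over all genes going from 2056 higher and 1848 lower to 1349 and 3754.

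CRE BMDCs responded too. In them 9 members were called higher by the fit without pairing by number, against 14% of genes. Tnfaip3 went from 4.90, 7.68 and 3.85 FPKM to 72.3, 23.5 and 45.4 FPKM (8.47-fold, log2 3.08 ± 0.40, adjusted p = 0.000257, edgeR). Nfkbia went from 87.1, 103 and 77.6 FPKM to 438, 296 and 404 FPKM (4.18-fold, log2 2.06 ± 0.20). Nfkbiz had log2 2.78 ± 0.44 and Nfkbie 1.74 ± 0.28. The Nfkbiz value again starts from controls near the floor. With 1 FPKM required in every BMDC library it was not tested, and 8 members were called. The subunits ran from 0.74 ± 0.20 for Nfkb1 to 1.37 ± 0.29 for Nfkb2. Library 2 of this label had the smallest ratio for every one of the 10 genes, with a median ratio of DMXAA to control of 1.81 against 2.93 and 3.5 in libraries 1 and 3.

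Bcl3 was the member not called in CRE BMDCs (log2 1.16 ± 0.42, adjusted p = 0.0626, edgeR), and the call depended on library 2. Its levels were 8.74, 4.71 and 7.13 FPKM in controls and 19.3, 5.22 and 22.4 FPKM after DMXAA. With the number as a block within each label Bcl3 passed (log2 0.99 ± 0.24, adjusted p = 0.00806). Without both CRE libraries numbered 2, which held the neutrophil transcripts given above, it also passed (log2 1.37, adjusted p = 0.00028), and Tnfaip3 stood at log2 3.72. The part of neutrophil transcripts in these values was not tested. With total-count scaling 7 members were called, Nfkb1 and Rel being lost, and the split over all genes went from 1702 higher and 1382 lower to 1190 and 3322.

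Between the labels no member differed in BMDCs by the same test, with or without DMXAA, nor in the interaction. Over all genes 0% were called in each of the 3 comparisons. An unadjusted p under 0.05 (edgeR) was found for 99, 108 and 60 of 12126 genes, none of them a member. Each count is below the share of 0.05 that equal groups would give. DESeq2 and limma voom called no member either. In control cells the CRE values lay between -0.20 (Bcl3) and 0.45 (Relb) of the WT values, with 95% intervals reaching from -1.11 to 1.19. After DMXAA they lay between -0.33 (Bcl3) and 0.01 (Rel), with intervals reaching from -1.23 to 0.77. Nfkbia differed by -0.20 (95% interval -0.62 to 0.22) and Tnfaip3 by -0.25 (-1.06 to 0.57) after DMXAA. The value after DMXAA in BMDMs lay outside the BMDC interval for 8 of the 10 members, among them Nfkbia (-2.47). It lay inside for Tnfaip3 (-0.94) and Bcl3 (-1.19). This sets values of 1 fit, without their own error, beside intervals of another fit, and was not counted over all genes. Whether the label difference itself differed between the cell types was not tested. The interaction was -0.48 (-1.08 to 0.11) for Nfkbia and -0.61 (-1.78 to 0.55) for Tnfaip3. Without both CRE libraries numbered 2 the values after DMXAA ran from -0.07 to 0.24. Every BMDC library lay closest to one of the other label, so these values describe the labelled groups. In both treatments CRE library 1 and WT library 3 were each other's nearest, as were CRE library 3 and WT library 2.

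Dendritic cells and macrophages of the WT label differed in 6 members before agonist. Nfkbie (1.47 ± 0.29, adjusted p = 0.00127, edgeR), Nfkb1 (0.95 ± 0.20) and Rel (0.93 ± 0.23) were higher in BMDCs, against 13.1% of 13368 genes. Nfkbiz (-2.05 ± 0.41), Tnfaip3 (-1.68 ± 0.35) and Rela (-0.53 ± 0.14) were lower, against 15.4%. The Rela call was lost in 5 alternatives, among them without control library 2 of the BMDMs (-0.29) or of the BMDCs (-0.46). Rel, which is abundant in lymphoid and dendritic cells, stood at 8.84, 9.56 and 10.3 FPKM against 4.92 and 4.71 FPKM. Relb, Nfkb2, Nfkbia and Bcl3 did not pass, with values of 0.30 to 0.58.

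The responses of the cell types differed in 2 members. The Tnfaip3 response was larger in BMDCs by 2.26 ± 0.50 (adjusted p = 0.025, edgeR, against 0.883% of genes called higher), and the Nfkbie response was smaller by -1.70 ± 0.39 (adjusted p = 0.0309, against 1.73% called lower). After DMXAA Tnfaip3 stood at 53.7, 46.1 and 69.1 FPKM in BMDCs against 37.7 and 40.2 FPKM in BMDMs. Nfkbie stood at 79.2, 64.8 and 84.6 FPKM against 96.9 and 87.6 FPKM. For both genes the cell type with the lower FPKM in control cells had the higher FPKM after DMXAA. The difference between cell types after DMXAA was not tested. The responses of Nfkbiz (1.49 ± 0.57) and Nfkbia (0.70 ± 0.29) were also larger in BMDCs, and that of Nfkb1 smaller (-0.64 ± 0.27), without passing. With total-count scaling Nfkbie did not (-1.57, adjusted p = 0.0655), and the split over all genes went from 118 higher and 231 lower to 144 and 177. Both calls rest on few libraries, since leaving out single WT libraries left at most 1 of the 2 called.

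The make-up of the subunit transcripts also differed between the cell types. Summed over the 5 subunits, WT BMDMs went from 88.1 ± 18.0 FPKM (SD, n = 2) to 271 ± 25.3 FPKM with DMXAA, and WT BMDCs from 101 ± 16.4 FPKM (SD, n = 3) to 283 ± 46.9 FPKM. Rela made up 52.1% ± 0.941 of this sum in WT control BMDMs and 32.9% ± 2.92 in WT control BMDCs. With DMXAA its share was 45.9% ± 1.53 and 27.5% ± 3.05, while Nfkb2 took 22.3% ± 2.41 without and 25.6% ± 0.82 with DMXAA in BMDMs, and 28.8% ± 1.86 without and 37.5% ± 4.10 with it in BMDCs. CRE BMDMs kept a share of Rela of 55.4% ± 0.0636 in controls and 52.9% ± 0.141 with DMXAA. Transcripts of Nfkbia and Nfkbie together stood at 0.726 ± 0.046 times the subunit sum in WT control BMDMs and 1.19 ± 0.195 times with DMXAA, and at 0.919 ± 0.0633 and 1.85 ± 0.213 times in WT BMDCs. In CRE BMDMs this ratio was 0.562 ± 0.00545 in controls and 0.472 ± 0.00141 with DMXAA, the 1 pair of groups in which it was lower after the agonist. With FPKM rescaled to the annotation's exonic lengths, Nfkb2 took 31.3% ± 3.7 and Rela 28.2% ± 2.86 in WT BMDCs with DMXAA, and Nfkb2 lay above Rela in 4 of the 6 BMDC libraries with DMXAA, against 6 with the table's lengths. These shares are of transcripts, not of protein, and were not tested.

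**Figure D4:**
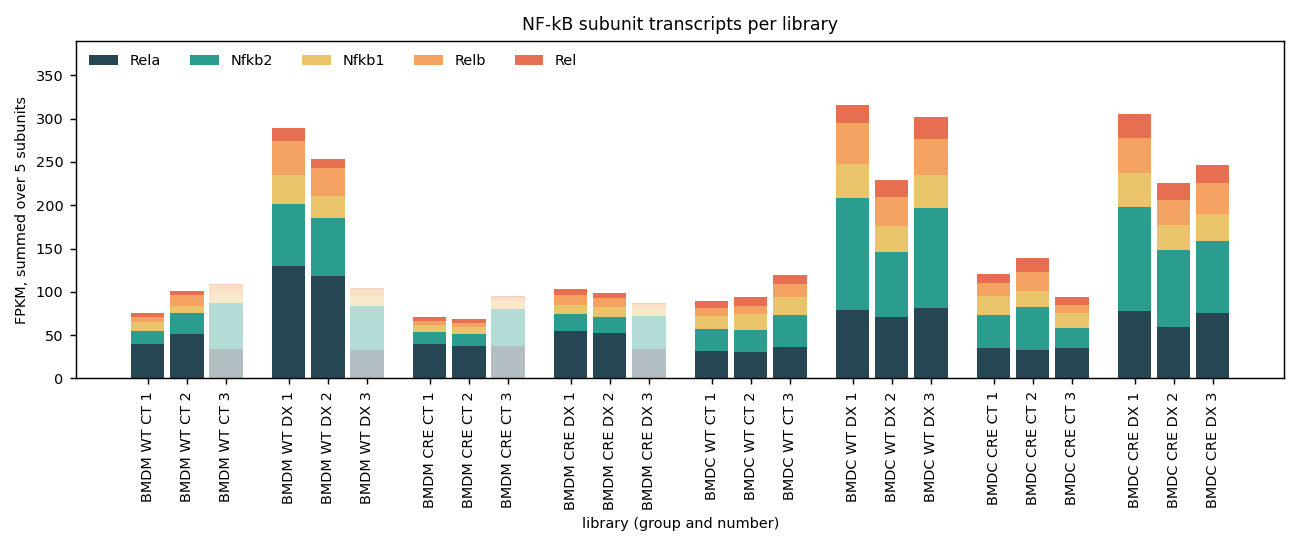
FPKM of Rela, Nfkb2, Nfkb1, Relb and Rel stacked for each of the 24 libraries, in groups, with the BMDM libraries numbered 3 drawn pale. The sums stand at 253 and 289 in WT BMDMs with DMXAA and at 99.1 and 103 in CRE BMDMs with DMXAA, and Rela is the largest part in both, while Nfkb2 is the largest in all 6 BMDC libraries with DMXAA at the table's lengths, and in 4 of them at the annotation's.

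The BMDM libraries numbered 3 had a pattern of their own, given as single values. Rel stood at 1.10 to 1.46 FPKM and Tnfaip3 at 1.16 to 3.10 FPKM over the 4 libraries, below all 4 control libraries numbered 1 and 2 (4.27 to 4.92 and 12.3 to 14.6 FPKM). Rela (33.0 to 37.3 FPKM) also lay below those controls (37.9 to 51.8 FPKM). Nfkb2 (37.5 to 52.5 FPKM) and Nfkbiz (10 to 27.3 FPKM) lay above those controls (13.6 to 24.2 and 1.38 to 3.51 FPKM). How many of all genes lie apart in this way was not counted. Over all expressed genes, libraries numbered 3 differed from others of their group by a root mean square of 1.53 to 1.98 in log2. The ratio of DMXAA to control had a median over the 10 genes of 0.997 in the WT-labelled pair numbered 3, between 0.804 (Rel) and 1.63 (Tnfaip3), and of 0.997 in the CRE-labelled pair, between 0.874 (Nfkb2) and 1.69 (Tnfaip3). When these libraries were included in the fit no member was called in any BMDM comparison. Over all genes 10 were then called in the response of WT BMDMs and 0 in that of CRE BMDMs.

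Other genes of the pathway were counted on lists chosen by role. Over all genes, 18.4% were called higher in WT BMDMs, 7.28% in CRE BMDMs, 17% in WT BMDCs and 14% in CRE BMDCs. Of 11 adaptors and ubiquitin ligases, which carry receptor signals to the kinases, 10 were called higher in WT BMDMs and 8 in WT BMDCs, with medians of 1.60 and 1.25 against -0.08 and 0.01 over all genes, and 2 and 7 were in the CRE groups. Of 8 kinases, 3 were higher in each WT group, 1 in CRE BMDMs and 3 in CRE BMDCs. In WT BMDMs 1 kinase gene, Map3k14, which encodes the kinase NIK of the noncanonical branch, was lower (log2 -1.48 ± 0.46, adjusted p = 0.0427, edgeR). Of all 11569 genes 2397 were called lower there. The Map3k14 call was lost in 10 alternatives, and its value was -0.71 without WT control library 1. Of 9 other inhibitors and feedback genes, 4 were higher and 1, Otulin, was lower in WT BMDMs, and 5 were higher in WT BMDCs. In CRE BMDMs 0 of these 9 were higher and in CRE BMDCs 4. Among 16 known targets, of which Il1b was too low to test in BMDMs, 11 of 15 were higher in WT and 4 in CRE BMDMs, and 15 of 16 and 13 in WT and CRE BMDCs. Cd40, the receptor for T cell CD40 ligand, was among the largest in all 4 responses, with log2 7.30 ± 0.45 and 4.52 ± 0.41 in WT and CRE BMDMs and 5.52 ± 0.69 and 4.41 ± 0.65 in WT and CRE BMDCs.

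In the comparison of labels after DMXAA, 12 of 15 targets, 8 of 11 adaptors and ligases, 4 of 9 other inhibitors and 3 of 8 kinases were lower in CRE than in WT BMDMs. Their medians were -3.47, -1.27, -0.30 and -0.13, against 0.01 over all genes and -1.53 over the members. Over all 11569 genes, 9.99% were called lower and 1071 genes higher in this comparison, and 2.28% lower in the interaction. Otulin, which encodes a deubiquitinase of linear chains, was the 1 listed gene called higher (1.09 ± 0.15, adjusted p = 0.00557, edgeR), a call lost without either CRE DMXAA library. In the interaction 6 targets were lower. Of the called targets that are named here, Icam1, an adhesion molecule, had the largest difference (-3.25 ± 0.45, adjusted p = 0.0208, edgeR). That call was lost without any 1 of the 4 CRE libraries. The lowest value among the 15 targets was -4.9. In BMDCs no listed gene was called between the labels.

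The genes whose pattern lay closest to the mean of the members were found by the root mean square difference of log2(FPKM + 1), centred within each cell type, over the 20 libraries and 11223 genes. They were Mdm2 (0.147), Stat3 (0.173), Zbtb5 (0.178), Birc3 (0.187) and Tnip1 (0.194). Mdm2, a ubiquitin ligase for p53, had group means of 31.8 and 108 FPKM in WT BMDMs without and with DMXAA, of 22.7 and 40.6 FPKM in CRE BMDMs and of 28.2 and 106 FPKM in WT BMDCs. Among the members Nfkb2 lay closest to their mean (0.20) and Tnfaip3 farthest (0.632).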

How the data were processed

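Poly(A) RNA libraries (NEBNext Ultra kit) were made for 24 samples. Per the labels, the submitters' processing notes name CASAVA 1.8, fastp, HISAT2 2.0.5, featureCounts 1.5.0-p3 and DESeq2 1.20.0 and the builds GRCm38 and mm10. The authors deposited raw counts per gene and FPKM values for 54532 genes, in 48 columns that were all matched to libraries by name. The deposited FPKM values are scaled by an effective library size, not by the sum of counts. Columns of the authors' own comparisons (fold changes and p-values) were not used.

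The members and the gene lists were chosen with earlier results of these data known. Counts were tested with edgeR 4.0.16 in R 4.3.3 (glmQLFit and glmQLFTest, TMM, two-sided, Benjamini-Hochberg adjustment over all genes tested). A gene was tested where its FPKM reached 1 in no fewer libraries than the smallest group holds. The BMDM fit held the 8 libraries numbered 1 and 2, the BMDC fit 12 libraries and the fit across cell types 20. Each SE is the size of the log2 fold change over the root of its F value. Alternatives used DESeq2 1.42.0, limma 3.58.1 (voom, and log2(FPKM + 1) or log2(FPKM + 0.1)), other scalings and filters, blocks, fits on fewer or more libraries, and each library left out in turn. Total-count scaling, the spread of the WT-labelled libraries and leaving out pairs of libraries that stood apart and lengths from the annotation were added after the data were seen. The script was tested on simulated data.

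Named genes were the 10 members, Tmem173, at most the 2 called genes of the pathway lists with the largest change in each direction per comparison, and the 5 genes closest in pattern. Il6 met this rule but is not named, since some groups held almost no reads of it. Marker lists covered macrophages, dendritic cells, fibroblasts, leukocytes and neutrophils. Leukocyte markers summed to 0.91 to 6.03 FPKM in the BMDM libraries numbered 3 and to at least 1549 in all others.

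Whether a number pairs libraries was judged from how same-numbered libraries deviated together from their group means over genes. In BMDCs the correlation between CT and DX was 0.42 or more (WT) and 0.55 or more (CRE), but across labels it reached -0.51. In BMDCs numbers were read as pairing CT with DX within a label, on these correlations alone, because no label explains the numbers. In BMDMs, where 2 libraries a group remain, they were not. The main BMDC fits leave this pairing out. With the number as a block within each label, all 10 members were called in the WT and CRE BMDC responses. Over all 12126 genes, 5911 and 5181 were called in either direction with that block. It called 0 members in the BMDC interaction. Total counts of 15657347 to 18912887 set the precision of low genes, and, lacking molecular identifiers, reads need not be separate molecules. No 2 libraries agreed within sampling noise (mean chi-square per gene of 3.23 or more between the closest pairs, where counting alone gives 1).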

Additional observations from a re-analysis of the deposited data

Results flagged for a closer look

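The response to DMXAA differed between the labels in BMDMs, by the interaction term of edgeR, for Nfkbie (-2.91), Nfkbia (-1.69), Nfkb1 (-1.24) and Tnfaip3 (-1.05), each smaller in CRE cells on the log2 scale. The response also differed between the cell types of the WT label, where that of Nfkbie was smaller in BMDCs (-1.7) and that of Tnfaip3 larger (2.26).

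The BMDM libraries numbered 3, which no comparison used, held more Nfkb2 and Nfkbiz transcript than any BMDM control numbered 1 or 2. The lowest of the 4 stood at 37.48 FPKM for Nfkb2, against at most 24.21 in those controls, and at 10 FPKM for Nfkbiz, against at most 3.514. The number of all genes that lay above those controls in this way was not counted. Groups of 2 or 3 libraries were not tested for single outlying samples.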

How the results depend on the processing

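Over 83 named values of members and 1539 alternatives, 1336 kept direction and side of the threshold, 130 lost a call, 68 gained one and 5 changed sign. Of the sign changes, Nfkbia in the response of CRE BMDMs stood at -0.05 with total-count scaling, and without both CRE-labelled libraries numbered 2 Tnfaip3 stood at 0.07 between the labels in DMXAA-treated BMDCs and at 0.02 in the BMDC interaction. With single libraries left out, Tnfaip3 ranged from -0.0024 to 0.22 between the labels in control BMDMs and from -0.7 to 0.07 in DMXAA-treated BMDCs. The cause of these changes was not tested.

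Counts of members called changed as follows. With the BMDM libraries numbered 3 included they were 0 in the BMDM responses, in the label difference after DMXAA, in the BMDM interaction and in the interaction with cell type, and 1 between cell types in control cells. With the spread estimated from WT-labelled libraries alone they were 0 in the CRE BMDM response, the label difference after DMXAA and the interaction. In the CRE BMDM response, where 1 was called, the count was 0 with total-count scaling, limma voom or limma on log2(FPKM + 1), 3 without a filter, 4 by DESeq2, 10 with only the 2 groups compared and 10 without both WT-labelled libraries numbered 2. In control BMDMs, where 0 were called, it was 3 without a filter, 1 by DESeq2 and 5 without that pair. In the BMDM interaction, where 4 were called, it was 2 with total-count scaling and 10 without that pair, and in the interaction with cell type, where 2 were called, 1 with total-count scaling. With single libraries left out the counts ran from 0 to 0 in the CRE BMDM response, 0 to 5 in control BMDMs, 3 to 10 after DMXAA, 0 to 8 in the BMDM interaction (8 without WT control library 2) and 0 to 1 in the interaction with cell type. The other counts stayed within 1.5 times their main value. Calls over all 11569 genes moved as well, so these changes need not be particular to the members. In the CRE BMDM response 1157 genes were called, 0 with the libraries numbered 3 included and 6389 with only the 2 groups compared. In the BMDM interaction 424 were called, 0 with those libraries included and 567 with total-count scaling.

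With the replicate number as a block across groups the counts were those without it (1 in the CRE BMDM response, 4 in the BMDM interaction). In BMDMs without the libraries numbered 3, same-numbered CT and DX libraries correlated at 0.68 (WT) and 0.04 (CRE) in their deviations from the group means. WT libraries of a number thus deviated together, and both numbered 2 held the higher fibroblast transcripts, while CRE libraries did not deviate together. With 2 libraries a group the numbers were not read as pairs in BMDMs. The main fit therefore counts the shared WT difference as spread. With the replicate block within each label the CRE BMDM response had 6 members called (against 15.6% of genes higher) and the BMDM interaction 6 (7.75% lower), and with the block within cell type and label the interaction with cell type had 3 (5.03% higher and 5.92% lower). That block cannot be fitted to a difference between labels or between cell types in control cells, since the numbers are nested in them. BMDM groups of 2 limit all BMDM tests.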
